A study of Mus musculus with 16 samples.

Results

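The protein components of the cytosolic ribosome were examined in mouse embryonic stem cells (mESCs) with and without METTL14, the partner of METTL3 in the complex that writes N6-methyladenosine on RNA. RefSeq protein-coding genes were taken whose symbol starts with Rpl or Rps and a digit, together with the stalk genes Rplp0, Rplp1 and Rplp2, leaving out the Rps6k kinases, Rps19bp1, Rpl7l1 and pseudogene symbols. The rule found 86 of 21887 protein-coding genes, 53 of the large subunit (Rpl, stalk included) and 33 of the small subunit (Rps). Chromatin immunoprecipitation with sequencing (ChIP-seq) had been done for H3K4me3, H3K27ac and H3K27me3 in Mettl14 control and Mettl14 knockout (labelled CKO) cells, with 2 libraries per mark and condition, which gave 12 peak lists and 117176 peaks. All cells were C57BL/6 mESCs kept in serum medium with LIF, the GSK3 inhibitor CHIR99021 and the MEK inhibitor PD0325901. How the Mettl14 allele was made, and whether libraries came from separate cultures or clones, is not given in the sources used here, so p-values measure only the spread between these libraries, which may be technical. Peak lists cannot show a loss of Mettl14 coding sequence, and the knockout label was not checked here.

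Ribosomal protein genes are transcribed at high and closely matched rates in growing cells, since a ribosome needs its proteins in equal amounts. Most have short, compact transcription units with a CpG-rich promoter, many of their messenger RNAs begin with a run of pyrimidines (the TOP tract) through which mTORC1 controls their translation, and many of their introns carry small nucleolar RNAs. H3K4me3 sits on nucleosomes around active and poised starts of transcription, H3K27ac on those of active promoters and enhancers, and H3K27me3 on chromatin repressed by Polycomb.

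To show what these promoters look like, 140 bases around the annotated start (120 before it and 20 from it on) are given 5′ to 3′ for 6 genes, from the RefSeq promoter table of GRCm38.p6, the assembly of mm10. The first pair, Rpl13a (chr7:45128726-45128865, minus strand) and Rps12 (chr10:23787190-23787329, minus strand), had the widest knockout peaks (by the narrower of each pair) of the genes with H3K4me3 in all 4 lists. Rps7 (chr12:28635934-28636073, minus strand) and Rps15a (chr7:118116128-118116267, minus strand) had the widest H3K4me3 peaks, again by the narrower of each pair, among the genes called in the knockout lists alone. Rpl22 (chr4:152325606-152325745, plus strand) and Rpl37rt (chr5:115110249-115110388, minus strand) had no H3K4me3 peak at their ends in any list. The printed Rpl22 start lies inside its span, beyond the windows at its ends. It had an H3K4me3 peak within 1 kb in all 4 lists (957 and 1104 bp in control, 1342 and 1673 bp in knockout lists). Capitals mark GGGCGG on the other strand in Rpl13a, CCGGAAG on the other strand in Rps7, and in Rps15a AGATGGC on the other strand overlapping a TOP tract.
Rpl13a: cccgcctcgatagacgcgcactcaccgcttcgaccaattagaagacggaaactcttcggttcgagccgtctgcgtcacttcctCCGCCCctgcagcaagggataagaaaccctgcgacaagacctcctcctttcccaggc
Rps12: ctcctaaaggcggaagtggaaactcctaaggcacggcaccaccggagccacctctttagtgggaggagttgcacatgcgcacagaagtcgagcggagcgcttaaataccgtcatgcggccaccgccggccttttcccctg
Rps7: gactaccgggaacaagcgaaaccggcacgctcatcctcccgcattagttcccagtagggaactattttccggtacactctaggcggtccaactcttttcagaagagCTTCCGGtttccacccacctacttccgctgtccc
Rps15a: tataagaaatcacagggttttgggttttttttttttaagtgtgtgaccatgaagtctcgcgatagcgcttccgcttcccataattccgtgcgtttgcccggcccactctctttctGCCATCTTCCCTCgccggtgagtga
Rpl22: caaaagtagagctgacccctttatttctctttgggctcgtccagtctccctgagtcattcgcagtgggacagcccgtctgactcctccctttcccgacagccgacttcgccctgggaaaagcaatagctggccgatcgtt
Rpl37rt: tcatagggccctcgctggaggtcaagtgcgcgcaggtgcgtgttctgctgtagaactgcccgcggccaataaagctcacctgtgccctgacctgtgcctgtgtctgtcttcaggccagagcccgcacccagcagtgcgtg

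The table held a start for 66 of the 86 genes, and its window of 300 bases (250 before the start and 50 from it on) was searched on both strands for 6 short motifs. CCGGAAG, the core of an ETS-family site, was found at 25 of 66 ribosomal protein genes (37.9%) and at 12.9% of 17492 protein-coding genes. A TOP tract, read here as C at the first transcribed base followed by at least 4 more C or T on the coding strand, was found at 15 (22.7%, against 2.67%). Only the exact annotated first base was tried, so a tract that begins at another base was not counted and the share may be too low. AGATGGC was found at 9 (13.6%, against 6.95%) and GGGCGG, a GC box, at 38 (57.6%, against 49.2%). CACGTG was found at 6 (9.09%, against 8.91%), the motif GCATGCG at 5 (7.58%, against 4.96%) and the TATA box, searched as TATAAA, at 8 (12.1%, against 14.8%). The windows held a median of 21 CpG dinucleotides against 15 in all genes, at nearly the same GC content (56.8% and 56.3%). These are matches of letters in a window, not measured binding sites.

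A gene counted as called if its annotated span had a peak within 1 kb of its first or last base. The lists hold positions and widths alone, so the width of the widest such peak, in bp, is the only size given below, and the read depth behind the lists is unknown. No peak is narrower than 501 bp, and peaks of that width made up 62.0% to 68.1% of the H3K4me3 control lists and 30.3% to 31.0% of the knockout lists. The H3K4me3 lists held 2859 and 2431 peaks in control and 8131 and 8055 in knockout cells, so differences in list length and differences at single genes move together. Of 10 pluripotency markers, 8 had H3K27ac in each control list and 9 in each knockout list. H3K4me3 stood at 5 and 4 of them in control and 9 in each knockout list, at 0 of 8 fibroblast markers in control and 2 in knockout lists, at 0 of 6 trophectoderm markers in control and 2 in knockout lists, and at 0 of 6 primitive endoderm markers in any list. What part these differences have in the results below was not tested. For H3K27ac the antibody field of the labels gives the H3K4me3 antibody, while the titles give H3K27ac, and the titles were followed.

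H3K4me3 was called at more ribosomal protein genes in the knockout than in the control lists. The control lists called 51 and 50 of the 86 genes (59.3% and 58.1%), where 8.01% and 8.08% of all protein-coding genes were called. Each knockout list called 74 (86.0%), where 30.8% and 30.9% of all genes were called. The means were 50.5 ± 0.707 and 74 ± 0 genes (SD, n = 2 each), without overlap between the conditions. When only the widest peaks of each list were kept, as many as the shortest list holds, the means were 50.5 and 67.5 genes. This setting keeps wide peaks, and called ribosomal protein genes stood at a median of the 80.4th to 86.7th percentile of width in the full lists. The share of all genes called at this setting was not counted. The comparison gene groups started lower: 78 mitochondrial ribosomal protein genes had 19 calls in each control list and 55 and 57 in the knockout lists, and 46 proteasome subunit genes had 10 and 7 against 33 and 33. The plot of the share of genes called in each list sets these groups side by side.

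**Figure D1:**
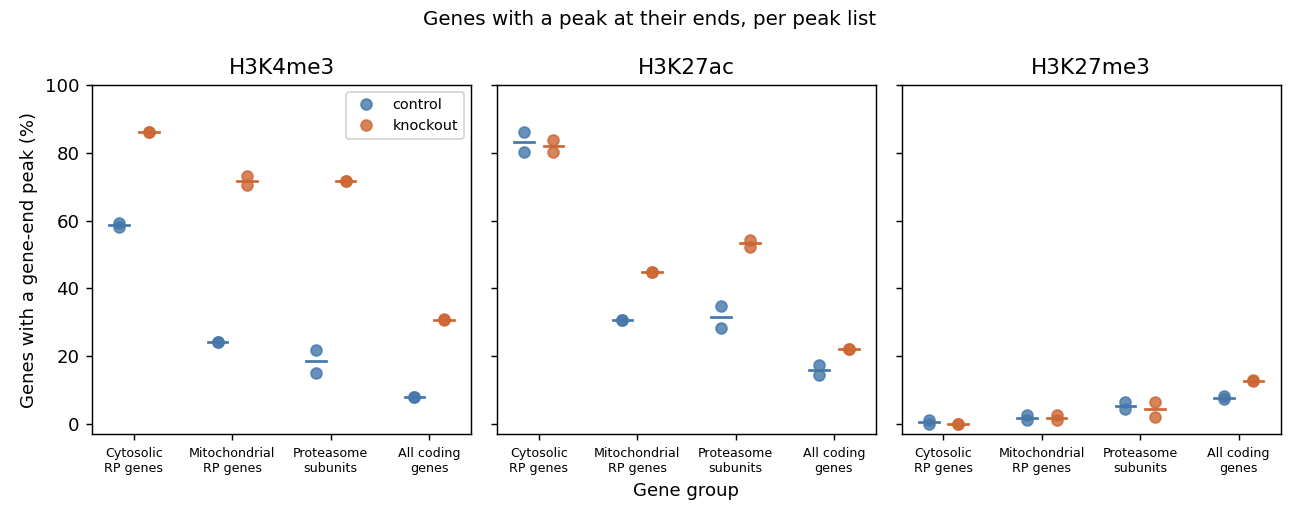
Percent of genes with a peak at their ends (vertical axis) in each of the 12 peak lists, for 4 gene groups and 3 marks; each point is 1 list and each bar the mean of 2 lists. Cytosolic ribosomal protein (RP) genes lie at 58.1% to 59.3% in control and 86.0% in knockout lists for H3K4me3, overlap between conditions for H3K27ac (80.2% to 86.0%) and lie at 0% to 1.16% for H3K27me3.

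Gene by gene, 37 ribosomal protein genes had H3K4me3 in all 4 lists (43.0%, against 2.90% of all genes), and these were also all that both control lists called (3.07% of all genes). They were 20 of the 53 Rpl and 17 of the 33 Rps genes. Another 25 (29.1%, against 7.53% of all genes) were called in both knockout lists and 1 control list, and 11 (12.8%) in both knockout lists and neither control list, here named knockout-only, which 13.5% of all genes were. The reverse class, control-only, held 0 ribosomal protein genes and 0.0274% of all genes. The order of these shares depended on the setting: 9.30% of ribosomal protein genes against 2.98% of all genes were knockout-only at equal list length, and 22.1% against 14.3% with peaks above the minimum width. Both knockout lists called 73 ribosomal protein genes and 24.0% of all genes. Of these 73 genes 15.1% were knockout-only, and 56.4% of all genes called in both knockout lists, while 50.7% against 12.1% had been called in all 4 lists. The heat map of widths in all 12 lists shows 84 of the 86 genes.

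**Figure D2:**
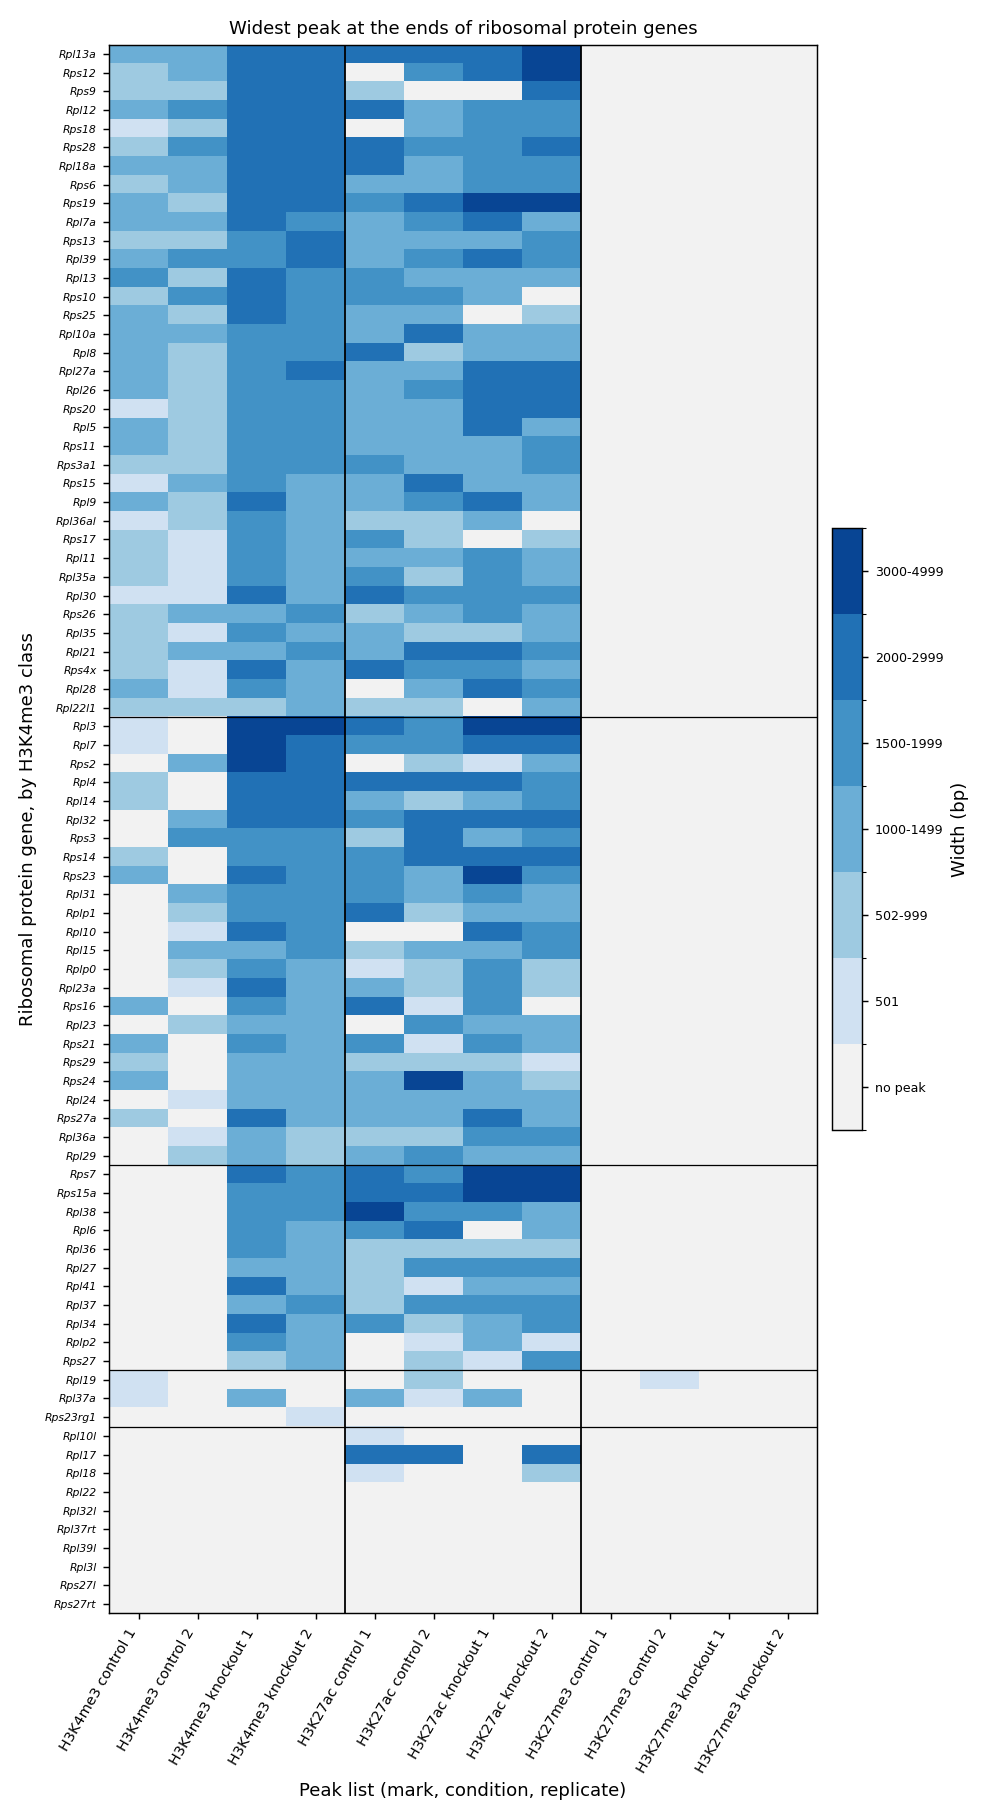
Width in bp of the widest peak at the ends of 84 of the 86 ribosomal protein genes (rows, ordered by H3K4me3 class) in each of the 12 peak lists (columns, grouped by mark). The 36 genes of the top block have H3K4me3 in all 4 lists, the 24 below in both knockout lists and 1 control list and the 11 next in the knockout lists alone, while the H3K27me3 columns are empty but for Rpl19 in control replicate 2.

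The small subunit holds the decoding site. Rps18 (chr17:33951998-33955665, mm10), a protein of its head, had H3K4me3 widths of 501 and 656 bp in control and 2317 and 2291 bp in knockout lists (log2 ratio of knockout over control width 2.01 ± 0.22 SE, limma, adjusted p = 0.0107). It had the largest ratio of the 37 genes, and its control widths stood at or near the minimum. Rps9 (chr7:3703954-3706897) had 857 and 657 bp against 2755 and 2528 bp (1.81 ± 0.23 SE, limma, adjusted p = 0.0112). Rps6, the substrate of S6 kinase downstream of mTORC1, had 632 and 1225 bp against 2106 and 2580 bp (1.41 ± 0.38 SE, limma, adjusted p = 0.0352). At each of these 3 genes both knockout peaks were wider than both control peaks. Rps19, one of the genes mutated in Diamond-Blackfan anaemia, had 1205 and 883 bp in control and 2011 and 2901 bp in knockout lists (1.23 ± 0.30 SE, limma, adjusted p = 0.0267). At the low end, Rps26 had 970 and 1229 bp against 1336 and 1684 bp (0.46 ± 0.24 SE, limma, adjusted p = 0.142). Its groups did not overlap, but it did not pass the test. Rps4x, on the X chromosome, had 941 and 501 bp against 2310 and 1279 bp (1.32 ± 0.46 SE, limma, adjusted p = 0.0580).

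The large subunit holds the peptidyl transferase centre. Rpl30 (chr15:34440505-34443276, mm10) had 501 bp in both control lists and 2667 and 1344 bp in the knockout lists (1.92 ± 0.38 SE, limma, adjusted p = 0.0182). Both of its control peaks were at the minimum width. Rpl13a had 1177 and 1013 bp against 2855 and 2921 bp (1.40 ± 0.20 SE, limma, adjusted p = 0.0112), the widest pair among the genes called in all 4 lists. Rpl35a had 626 and 501 bp against 1537 and 1360 bp (1.37 ± 0.22 SE, limma, adjusted p = 0.0135). Rpl5 and Rpl11 bind MDM2 when ribosome assembly is disturbed, and both were wider in the knockout. Rpl5 had 1046 and 760 bp against 1814 and 1587 bp (0.93 ± 0.25 SE, limma, adjusted p = 0.0341), and Rpl11 had 933 and 501 bp against 1551 and 1446 bp (1.13 ± 0.35 SE, limma, adjusted p = 0.0469). Rpl39 had 1135 and 1704 bp against 1876 and 2113 bp (0.52 ± 0.27 SE, limma, adjusted p = 0.142). Rpl22l1, the paralog of Rpl22, had the smallest ratio of the 37 genes, with 897 and 943 bp against 881 and 1205 bp (0.16 ± 0.24 SE, limma, adjusted p = 0.538). Its knockout replicate 1 was narrower than both control lists, so the groups overlapped.

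Rpl3 (chr15:80077781-80083406, mm10), a protein that reaches into the peptidyl transferase centre, had the widest H3K4me3 peaks of all 86 genes in the knockout. Its widths were 501 bp and no peak in control and 3681 and 3560 bp in knockout lists. Rpl7 had 501 bp and no peak against 3680 and 2837 bp. At both genes 1 control list held a peak of the minimum width, so they stand outside the knockout-only class. Rpl10 (chrX:74270816-74273135), which joins the large subunit late in its assembly, had no peak and 501 bp in control and 2093 and 1558 bp in knockout lists.

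The stalk proteins recruit elongation factors to the ribosome. Rplp0 had no H3K4me3 peak in control replicate 1 and 629 bp in replicate 2, against 1762 and 1459 bp in the knockout lists. Rplp1 had none and 638 bp against 1592 and 1900 bp. Rplp2 was knockout-only, with 1572 and 1079 bp. All 3 stalk genes were thus called in both knockout lists, and none in both control lists.

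The knockout-only genes were Rps7, Rps15a, Rpl38, Rpl6, Rpl36, Rpl27, Rpl41, Rpl37, Rpl34, Rplp2 and Rps27. Another coding gene ended or began within 1 kb of 5 of the 11, as at 31 of the 86 genes, a share not counted over all genes. The neighbours were Lonp1 at Rpl36 and Card6 at Rpl37 (51 bp each), Rab13 at Rps27 (67 bp), Pidd1 at Rplp2 (86 bp) and Zc3h10 at Rpl41 (102 bp). Which gene of such a pair a peak belongs to was not tested. Rps7, another gene mutated in Diamond-Blackfan anaemia, had 2647 and 1935 bp in the knockout lists. Rps15a had 1862 and 1735 bp, Rpl38 had 1963 and 1627 bp and Rpl6 had 1645 and 1447 bp. The absence of Rpl38, which is known for its part in the translation of Hox messenger RNAs, and of Rpl6 from the control lists depended on the window. Inside their spans but beyond the windows at their ends, control replicate 2 held peaks of 1086 bp at Rpl38 and 630 bp at Rpl6. The Rpl38 peak lay within 1 kb of the annotated start of the gene, and the Rpl6 peak did not. Rpl36 had 1766 and 1352 bp, Rpl27 had 1469 and 1316 bp, Rpl41, which encodes a very short basic peptide, had 2262 and 1227 bp, and Rpl37 had 1189 and 1952 bp. Leaving out control replicate 1 raised the count of knockout-only genes from 11 to 23 (26.7%, against 17.2% of all genes), and leaving out control replicate 2 raised it to 24 (27.9%, against 17.3%), since 1 missing call then sufficed. Of the 11 genes, 8 had H3K27ac in all 4 lists, as had 57 of the 86 ribosomal protein genes (66.3%, against 6.91% of all genes). The share over all knockout-only genes was not counted.

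Over the 37 genes called in all 4 H3K4me3 lists, the median width was 941 and 925 bp in control and 1876 and 1707 bp in knockout lists. All 37 had a higher mean in the knockout (median log2 ratio 0.97, 1.95-fold, range 0.16 to 2.01), and at 35 (94.6%) both knockout widths exceeded both control widths, as at 93.1% of all genes called in all 4 lists. The exceptions were Rps10 and Rpl22l1. Over all 634 such genes the median log2 ratio was 1.09 (2.13-fold). It was 0.91 over the 20 Rpl and 1.23 over the 17 Rps genes. The widest peaks of the 4 lists shared bases at 36 of the 37 genes. At Rpl35 they did not, so its ratio, which limma called, compares peaks at different places. With limma on log2 width, fitted on all 634 genes, 24 of the 37 were wider in the knockout at an adjusted p below 0.05 and 0 were narrower, where 63.9% of all 634 genes were called wider and 0 narrower. With knockout replicate 1 left out, limma called 1 of the 37 wider (2.70%, against 12.8% of all genes fitted), and with knockout replicate 2 left out 1 (2.70%, against 17.5%). After the difference common to all genes was taken out, limma called 0 ribosomal protein genes in either direction, with 5 (13.5%) at an unadjusted p below 0.05, and it called 0 of all 634 genes, with 108 (17.0%) at an unadjusted p below 0.05.

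**Figure D3:**
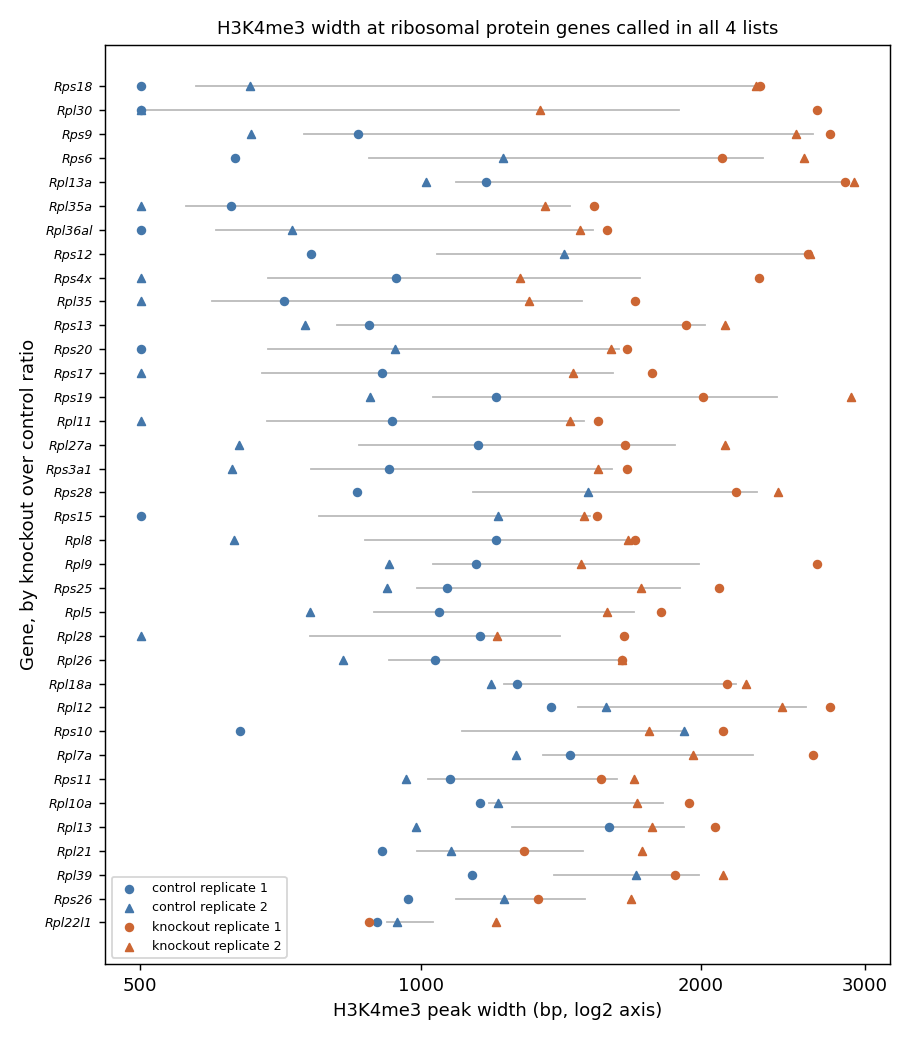
H3K4me3 peak width (bp, log2 axis) in the 4 lists at 36 of the 37 ribosomal protein genes called in all of them, ordered by the ratio of knockout over control width; circles are replicate 1, triangles replicate 2, and the grey line joins the geometric means of the 2 conditions. At 34 of the genes shown both knockout points lie right of both control points, and Rps10 and Rpl22l1 are the exceptions.

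The H3K4me3 peaks of ribosomal protein genes were wide for their lists. The 51 and 50 called genes stood at a median of the 83.7th and 80.4th percentile of width among all called genes in the control lists, and the 74 at the 86.7th and 83.9th in the knockout lists. Of them 18 and 18 in control and 30 and 23 in knockout lists were among the widest 10%. Peaks of the minimum width stood at 10 and 11 ribosomal protein genes in control and at 0 and 1 in knockout lists.

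The position of the peaks against the start differed between the conditions as well. Of 56 ribosomal protein genes with a single annotated start, 32 and 35 had an H3K4me3 peak within 1 kb of it in the control lists and 50 in each knockout list. The start itself lay inside that peak at 7 of 32 and 8 of 35 in control (21.9% and 22.9%) and at 40 and 37 of 50 in knockout lists (80.0% and 74.0%). For all genes with a single start the shares were 25.7% and 26.2% against 70.6% and 69.8%. For 26 genes with a peak at the start in all 4 lists, among them Rpl18, whose start lies inside its annotated span, the reach upstream of the start was taken as negative where a peak began downstream of it. Its median was -143 and -124.5 bp in control and 355 and 278.5 bp in knockout lists. The control peaks thus mostly began downstream of the start and the knockout peaks upstream of it. The peaks ended 1093.5 and 1100 bp downstream in control and 1562.5 and 1548.5 bp downstream in knockout lists. The gain was thus on both sides, with medians of 515 bp upstream and 432 bp downstream, in 25 and 24 of the 26 genes. The peaks covered a median of 34.3% and 32.4% of the gene in control and 56.7% and 54.2% in knockout lists, since the 86 genes have a median span of 3169.5 bp against 17169 bp for all genes.

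At Rpl13a, whose promoter is printed above, the control peaks reached 95 and 37 bp upstream of the start and the knockout peaks 801 and 542 bp. They ended 1081 and 975 bp downstream against 2053 and 2378 bp. At Rps12 the upstream reach was -323 and 163 bp in control, with the first peak beginning downstream of the start, and 737 and 784 bp in knockout lists. Knockout peaks at Rps7 reached 683 and 50 bp upstream of the start and at Rps15a 8 and 35 bp. The printed bases therefore lay within knockout peaks at Rpl13a and Rps12, and only in part at Rps15a.

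**Figure D4:**
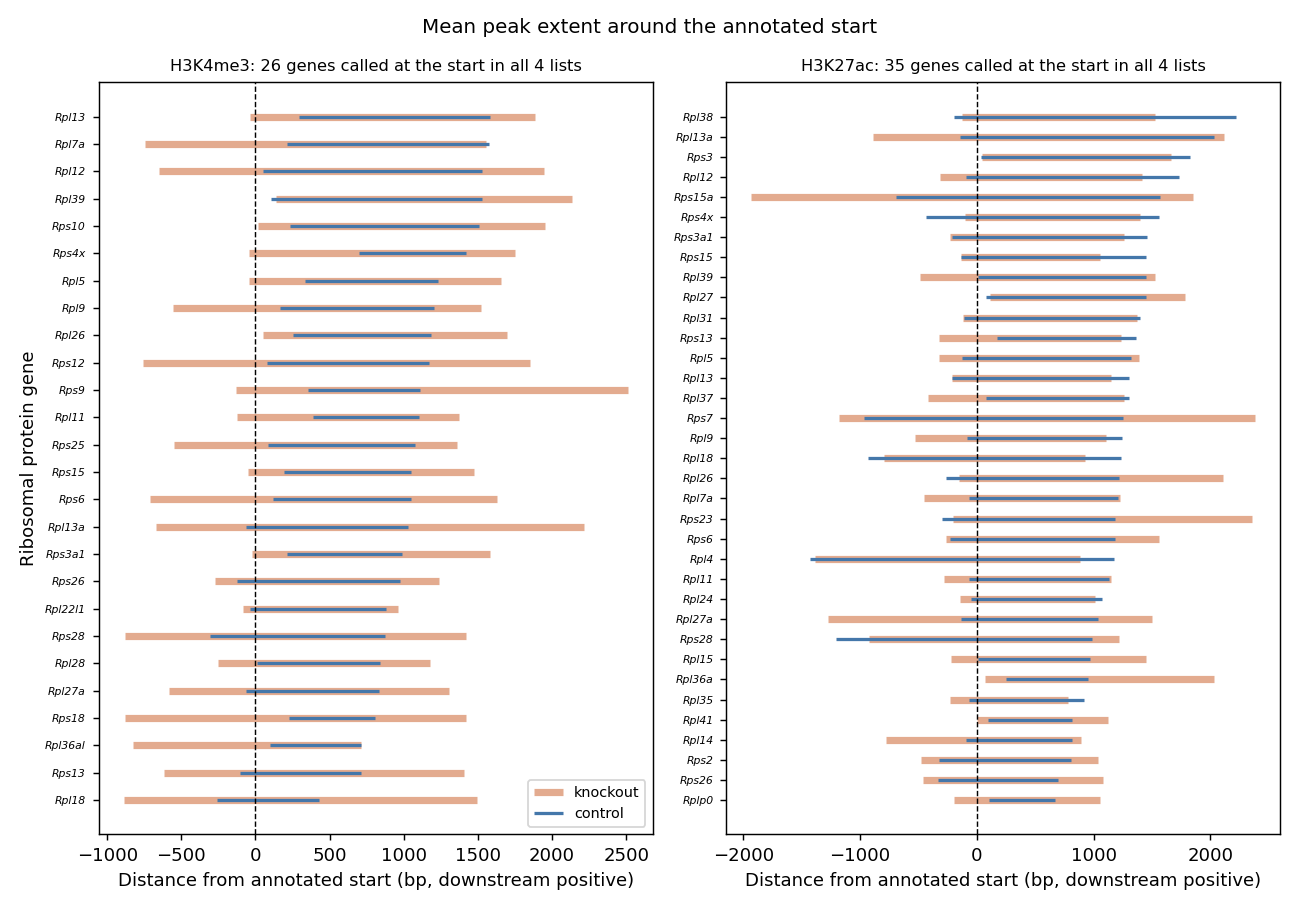
Mean reach of the peak around the annotated start (dashed line; distance in bp, downstream positive) in control (blue) and knockout (orange) lists, for 26 ribosomal protein genes with an H3K4me3 peak and 35 with an H3K27ac peak at a single start in all 4 lists of the mark. For H3K4me3 most control bars begin downstream of the start and knockout bars upstream of it, with median gains of 515 bp upstream and 432 bp downstream; the H3K27ac bars differ less.

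H3K27ac was called at most ribosomal protein genes in both conditions. The control lists called 69 and 74 genes (80.2% and 86.0%, against 17.4% and 14.4% of all genes) and the knockout lists 69 and 72 (80.2% and 83.7%, against 22.1% and 22.0%). The means of 71.5 ± 3.54 and 70.5 ± 2.12 genes (SD, n = 2 each) differed by less than the spread between the control lists. Both control lists called 66 genes (9.08% of all genes), both knockout lists 65 (14.4%), and all 4 lists 57 (66.3%, against 6.91% of all genes). Rpl10 alone was knockout-only, with no peak in control and 2576 and 1693 bp in knockout lists, and 2.88% of all genes were. Control-only were 0 genes, against 0.493% of all genes.

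The widths of these acetylation peaks did not move one way. Over the 57 genes the median log2 ratio of knockout over control width was 0.26 (1.20-fold, range -1.10 to 1.50), 39 of 57 (68.4%) were wider in the knockout, and the median over all 1513 genes in all 4 lists was 0.29. Both knockout widths lay above both control widths at 19 genes (33.3%, against 36.0% of all 1513) and below both at 1 (1.75%, against 5.88%). limma called 0 of the 57 genes and 0 of all 1513 at an adjusted p below 0.05, and 6 and 161 had an unadjusted p below 0.05. The widest peaks of the 4 lists shared bases at 54 of the 57 genes, and at Rps21, Rps29 and Rpl36 they did not. The widening of H3K4me3 and of H3K27ac was not tested against each other.

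Rpl36a, on the X chromosome, had H3K27ac widths of 763 and 632 bp in control and 1945 and 1982 bp in knockout lists (1.50 ± 0.25 SE, limma, adjusted p = 0.255). Rpl27a had 1312 and 1041 bp against 2706 and 2842 bp (1.25 ± 0.26 SE, limma, adjusted p = 0.265). At both genes the groups lay apart without passing the test. Rpl3 had 2423 and 1682 bp against 4039 and 4532 bp, the widest H3K27ac peaks of the 86 genes (1.08 ± 0.30 SE, limma, adjusted p = 0.343). Rps20 had 1205 and 1239 bp against 2683 and 2274 bp, and Rps19 had 1672 and 2324 bp against 3606 and 4138 bp. In the other direction Rps24 had 1402 and 3429 bp in control and 1386 and 753 bp in knockout lists (-1.10 ± 0.58 SE, limma, adjusted p = 0.575). Both of its knockout peaks were narrower than both control peaks, and the control lists differed from each other by more than the knockout lists did. Rpl38 had 3292 and 1547 bp against 1941 and 1372 bp, Rps4x 2383 and 1617 bp against 1695 and 1317 bp, and Rpl10a 1274 and 2800 bp against 1448 and 1459 bp. The stalk genes had uneven widths. Rplp0 had 501 and 632 bp against 1845 and 656 bp, Rplp1 had 2116 and 635 bp against 1015 and 1232 bp, and Rplp2 had no peak and 501 bp against 1091 and 501 bp.

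**Figure D5:**
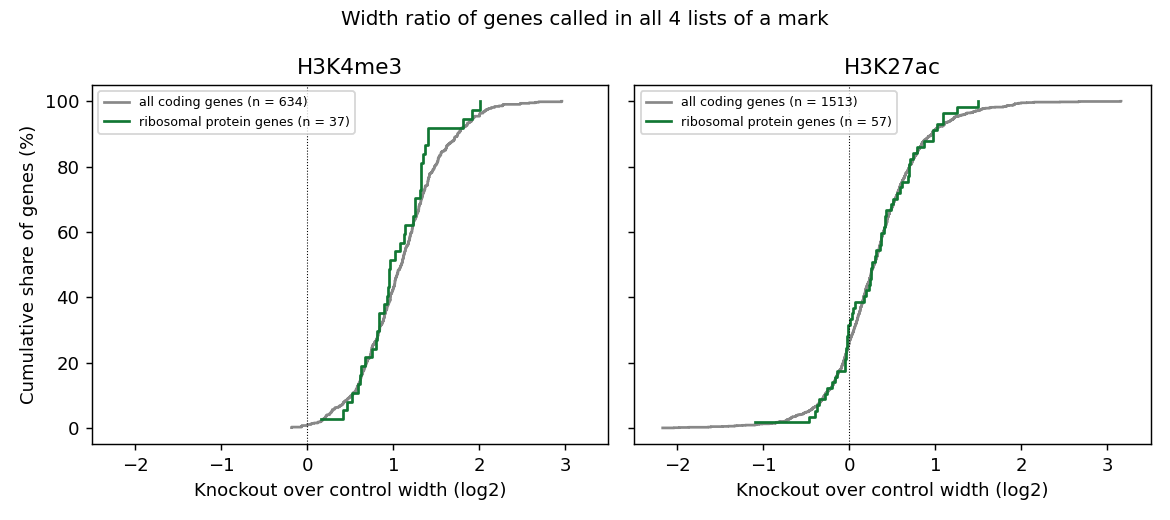
Cumulative share of genes (vertical axis, %) by log2 ratio of knockout over control peak width (horizontal axis), for ribosomal protein genes (green) and all protein-coding genes (grey) called in all 4 lists of H3K4me3 (37 and 634 genes) or H3K27ac (57 and 1513 genes). The green and grey curves run close together in both panels, with medians of 0.97 and 1.09 for H3K4me3 and 0.26 and 0.29 for H3K27ac.

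Both marks stood together at 47 and 48 ribosomal protein genes in control lists (54.7% and 55.8%, against 5.25% and 4.91% of all genes) and at 69 and 70 in knockout lists (80.2% and 81.4%, against 16.9% and 16.9%), replicate 1 being set against replicate 1 and replicate 2 against replicate 2. Where both were called, a median of 100.0% and 99.9% of the H3K4me3 peak lay under the H3K27ac peak in control cells, and 79.6% and 84.3% in knockout cells. The widest peaks of the 2 marks overlapped at 47 of 47 and 44 of 48 genes in control and 67 of 69 and 67 of 70 in knockout lists. The H3K4me3 peaks of the control cells were thus mostly nested in the acetylation peaks. They were also narrower, with medians over called genes of 921 and 902 bp against 1343 and 1320.5 bp. Nesting over all genes was not counted, and what the antibody field of the H3K27ac labels means for this overlap was not tested. All 4 lists of both marks held 28 of the 86 genes. Of the 25 genes with H3K4me3 in both knockout lists and 1 control list, 21 had H3K27ac in all 4, as had 66.3% of the 86 genes. The matching shares over all protein-coding genes were not counted for these 2 results.

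H3K27me3 was nearly absent from ribosomal protein genes in both conditions. The control lists called 0 and 1 gene and the knockout lists 0 and 0, where 7.31%, 8.25%, 12.7% and 13.0% of all genes were called. The single call was a peak of 501 bp at the end of Rpl19, away from its annotated starts, in control replicate 2. Knockout-only and control-only were 0 genes each, against 2.43% and 0.315% of all genes. The lists of H3K27me3 were longer in the knockout (11349 and 11446 peaks against 6312 and 7203), and no ribosomal protein gene was among the genes gained at their ends.

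Of the 86 genes, 13 lacked H3K4me3 at their ends in at least 1 knockout list. Rpl19, Rpl37a and Rps23rg1 had 1 or 2 calls, and 10 genes had none in any list: Rpl10l, Rpl17, Rpl18, Rpl22, Rpl32l, Rpl37rt, Rpl39l, Rpl3l, Rps27l and Rps27rt. Over the whole gene span, a setting chosen after the values were seen, several of these had peaks. Rpl22 had 957 and 1104 bp in control and 1342 and 1673 bp in knockout lists, at the inner start whose sequence is printed above. Rpl18 had 878 and 501 bp against 2459 and 2305 bp, Rpl19 had 1019 and 1030 bp against 1323 and 1465 bp, and Rpl17 had 501 and 1445 bp against 1740 and 1921 bp. The knockout peaks of these 4 genes were wider than both control peaks. Rps27l, the paralog of Rps27 and a p53 target, had no control peak and 1486 and 1300 bp in the knockout lists, with H3K27ac in all 4 lists (1188 and 1461 bp against 1281 and 1023 bp). By this wider reading 42 genes had H3K4me3 in all 4 lists (all genes 3.77%), 78 in both knockout lists (27.6%), 10 in the knockout lists alone (14.5%) and 6 in none. The 6 were Rpl10l, Rpl32l, Rpl37rt, Rpl39l, Rpl3l and Rps27rt, and of these Rpl3l is known for heart and skeletal muscle, and Rpl10l and Rpl39l for the testis.

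Some paralog pairs differed in these lists. Rpl3, Rpl10 and Rpl39 had H3K4me3 in both knockout lists, while Rpl3l, Rpl10l and Rpl39l had none in any list. Rps27 and Rps27l both had it in the knockout lists alone, Rps27l inside its span. Rpl10l had 1 H3K27ac peak of 501 bp, in control replicate 1. Rpl36a had no peak and 501 bp in control and 1494 and 939 bp in knockout lists, and its paralog Rpl36al had 501 and 727 bp against 1586 and 1482 bp (1.35 ± 0.26 SE, limma, adjusted p = 0.0171). The control peak of Rpl36a lay more than 1 kb from its annotated start and both knockout peaks within 1 kb of it, so these widths belong to different places. Ribosomal protein genes have many processed copies in the genome, and how reads with several possible origins were placed is not given in the sources used here.

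Other genes of the translation machinery were counted the same way. Fau, which encodes a fusion of a ubiquitin-like domain with a ribosomal protein, and Rack1, a scaffold on the small subunit, had H3K4me3 in all 4 lists. Of 25 translation factors, 8 had it in all 4 lists (among them Eif2s2, Eif3f, Eif4g2 and Eef1a1), 24 in both knockout lists and 5 in the knockout lists alone (among them Eif5b, Eif3c, Eif1 and Eif3h). H3K27ac stood in all 4 lists at 16 of them. Of 25 ribosome biogenesis genes, 4 had H3K4me3 in all 4 lists (Nop58, Ncl, Utp4 and Npm1), 16 in both knockout lists and 10 in the knockout lists alone (among them Rrs1, Nop10, Polr1b and Nop56). Of 13 genes of the mTORC1 pathway and TOP control, 1 had H3K4me3 in all 4 lists (Eif4ebp2) and 5 in the knockout lists alone (Tsc1, Mtor, Akt1s1, Eif4ebp1 and Rptor). H3K27me3 was called at 0 genes of these 3 lists in any list. The share with H3K4me3 in all 4 lists was thus 43.0% for ribosomal proteins, 32.0% for translation factors, 16.0% for biogenesis genes, 15.4% for mitochondrial ribosomal proteins and 6.52% for proteasome subunits. These shares are descriptions, and the differences between the groups were not tested.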

How the data were processed

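Titles gave the mark, condition and replicate of the 12 libraries with peak lists; 4 inputs were not used here. The submitters' processing notes name Bowtie2 2.4.1, Trimmomatic 0.38, HOMER, SAMtools, CASAVA and build mm10. The sources used here do not give the peak caller, its thresholds or how inputs and spike-in chromatin entered. The authors deposited 1 BED list per library, so replicates were called separately. The deposited score column holds 1 value throughout and was not used as a measurement.

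Gene spans came from the RefSeq table of GRCm38.p6. A peak counted when it shared at least 1 bp with a window of 1 kb either side of either gene end. Width is that of the widest such peak. log2 widths of genes called in all 4 lists of a mark were fitted with limma 3.58.1 (R 4.3.3), with Benjamini-Hochberg adjustment over all genes fitted. Calls required an adjusted p below 0.05. Counting and fit were tested on simulated data. The members, gene lists and markers were chosen with earlier results of these data known. Every gene could be named by its class. Widths are given by a rule for the 8 widest knockout-only genes (by the narrower knockout peak), the 6 largest and 4 smallest width ratios per mark, the stalk genes and paralog pairs. Rpl5, Rpl7, Rpl11 and Rps19 for H3K4me3, and Rpl36al, were added after their values were seen, and some results that the rule asks for are not reported here. Alternatives were windows of 500 and 2500 bp, the start alone, equal list length, peaks above the minimum width, an overlap of 100 bp, summed peak width, a replicate block, centring, the whole gene span and leaving out each list.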

Additional observations from a re-analysis of the deposited data

How the results depend on the processing

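Of 147 alternatives over 13 results, 124 kept the value within the spread or within 1.5 times of the count and 23 moved it. The knockout minus control difference in ribosomal protein genes called for H3K4me3 was 23.5, and it was 29 with windows of 500 bp, 19.5 at the start alone (66 genes), 17 at equal list length, 33.5 with peaks above the minimum width and 24.5 with an overlap of 100 bp. The shares of all genes called at these settings were not counted, so these differences cannot be set against the gain over all genes. The H3K4me3 knockout-only count of 11 was 19 with peaks above the minimum width and 11 to 24 with 1 list left out. The control-only count of 0 was 0 to 1 with 1 list left out, the 1 being without control replicate 2 (1.16%, against 0.457% of all genes). The number of genes with wider H3K4me3 by limma, 24, was 0 after centring on all genes and 1 to 21 with 1 list left out, where the lone list is assumed to vary like the others. Without control replicate 1 the H3K4me3 fit held 50 ribosomal protein genes, and without control replicate 2 it held 49, in place of 37. The counts of these fits therefore cannot be set against 24 directly. Their median log2 ratios were 1.06 and 0.87, against 1.06 and 1.02 over all genes fitted. For H3K27ac the knockout-only count of 1 was 1 to 8 with 1 list left out. It was 8 (9.3%, against 4.67% of all genes) without control replicate 2. It was 2 (2.33%, against 2.85% of all genes) with an overlap of 100 bp. The control-only count of 0 was 1 with that overlap (1.16%, against 0.466% of all genes). It was 1 to 5 with 1 list left out, with 4 and 5 (4.65% and 5.81%, against 1.32% and 1.34% of all genes) without a knockout list. The H3K27ac width ratio of 0.26 was 0.19 to 0.34 on leaving out 1 list. For H3K27me3 the difference in genes called turned from -0.5, within its SD of 0.707, to 1.5 with windows of 2500 bp. Its control-only count of 0 was 0 to 1 with 1 list left out, the 1 being without control replicate 1 (1.16%, against 1.46% of all genes). No width ratio could be given for H3K27me3, since no ribosomal protein gene was called in all 4 lists. Beyond settings that use fewer lists, peaks or genes by construction, the cause was not tested.

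The replicate numbers were not shown to pair the libraries. Deviations of same-numbered lists correlated at -0.03 for H3K4me3, -0.02 for H3K27ac and 0.06 for H3K27me3. With the replicate block, limma called 26 of the 37 genes wider for H3K4me3 (70.3%, against 69.1% of all genes fitted) and 0 of 57 for H3K27ac. The lists hold no read numbers, so the depth that sets which peaks could be called is unknown.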

Other observations

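Small nucleolar RNA genes lay inside 29 of the 86 ribosomal protein genes, 56 in all. H3K4me3 was called at 19 and 22 of these hosts in control and 28 and 28 in knockout lists. Of the other 57 genes 32 and 28 were called in control and 46 and 46 in knockout lists. Median widths were 1076 and 1001 bp against 1901 and 1868 bp at the hosts, and 877 and 776.5 bp against 1770 and 1484 bp at the rest. H3K27ac was called at 24 and 28 hosts in control and 27 and 28 in knockout lists, and at 45 and 46 of the rest against 42 and 44. The hosts were thus called at a higher share in each list of both marks, a description with no test. The groups also differ in their members. Of the 10 genes with no H3K4me3 call in any list only 1 was a host, so the rest held most of the uncalled genes, among them Rpl3l, Rpl10l and Rpl39l. Whether hosting matters apart from this was not tested, and hosts among all protein-coding genes were not counted.

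For H3K4me3 peak width, Spearman's rho across genes was 0.51 between knockout lists (73 genes) and 0.23 between control lists (37 genes), and for H3K27ac it was 0.53 (65 genes) and 0.31 (66 genes). The sets of genes differ between these values, several control widths are tied at the minimum, and genes are not independent replicates. A peak was shared with another protein-coding gene at 11 and 12 ribosomal protein genes in control and 23 and 22 in knockout H3K4me3 lists, and 31 of the 86 genes have a coding neighbour whose end lies within 1 kb.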
